A study of Mus musculus with 18 samples.

Results

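Kidneys of mice on a high fat diet (HFD) were compared with kidneys of untreated control mice, 3 libraries against 3, out of 18 libraries in 6 groups of 3. All mice were of ICR, an outbred strain, aged 10 weeks, and messenger RNA was sequenced from frozen whole kidney. The 6 libraries were chosen by their treatment label alone. A second diet comparison that shares no library with the first came from mice given HFD and AOS against mice given AOS alone, at 10 mg/kg per the labels, which do not spell AOS out. The last 2 groups were HFD mice labelled AOS-FMT and control-FMT. They enter the shared estimate of the spread and the filter on low values, with their levels given for Aadat and Bcl6. The series asks about FMT in kidneys damaged by a high fat diet. The labels give neither the composition nor the length of the diet. Nor do they state that each library is a different animal, so p-values measure the spread between these libraries, which may be technical.

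The kidney takes up filtered solutes along a tubule whose first segment, the proximal tubule, lives mainly on fatty acid oxidation. Later segments, the loop of Henle, the distal tubule and the collecting duct, set the final salt, acid and water content of urine. Excess dietary fat is known in rodents to load the proximal tubule with lipid.

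Markers of kidney were high in all 6 libraries, with a summed signal of the 18 proximal tubule markers of 8750.79, 8704.78 and 8347.4 in HFD libraries, against 8427.82, 8695.27 and 5824.44 in controls. Control replicate 3 stood apart from the other 17 libraries. Its correlation with each of them was 0.948 to 0.963 across genes on the log2 scale, against 0.979 to 0.993 among the others. Kap, the androgen-regulated protein of mouse proximal tubule, made up 20.5% to 22.3% of the summed signal in HFD libraries, and 21.2%, 20.9% and 2.48% in control replicates 1, 2 and 3. The 12 adrenal markers summed to 1.57, 2.17 and 2.96 in HFD libraries, against 2.92, 2.93 and 989.28 in controls, and all 12 were over 10 times their highest level elsewhere in control replicate 3. Counts of genes called between HFD and control kidneys are therefore given with and without that library. Its relative depth was 0.874, that of control replicate 1 was 0.9, and the other 16 lay between 0.968 and 1.024, on a scale where the middle of the libraries is near 1. Prm1, a protamine of sperm, had a signal of 8.08, 7.84 and 0 in HFD libraries, against 9.07, 9.44 and 14.51 in controls, and was at most 0.3 in the other 12 libraries. A fit with a term for these germ cell transcripts is given beside the calls below.

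Across 12031 genes with a signal of at least 1 in 3 or more libraries, no gene passed an adjusted p of 0.05 between HFD and control kidneys (limma, 0.0% called). At an unadjusted p under 0.05 there were 2091 genes (17.4%), of which 352 were higher in HFD kidneys (2.93%) and 1739 lower (14.5%). Quantile normalization, which gives all libraries the same distribution, turned that split to 971 higher and 818 lower. Without control replicate 3 again no gene passed, and 822 genes had an unadjusted p under 0.05 (6.83%), 268 higher (2.23%) and 554 lower (4.6%). More genes were lower than higher in both fits on the values as deposited, by a wider margin with control replicate 3. The median log2 difference over all genes was -0.10 with it and -0.02 without it, and was 0.01 after quantile normalization, so differences are best read against that shift. The 3 HFD and 3 control values did not overlap in 1885 genes (15.7%), and in 2770 (23.0%) without control replicate 3. By chance, 10% of genes would not overlap in 3 against 3 values. That share is larger for 3 against 2, so these percentages cannot be compared with each other directly. Leaving out control replicate 2 instead gave 217 genes that passed, and 1 gene passed without HFD replicate 1, without HFD replicate 2 or without AOS replicate 3.

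**Figure D1:**
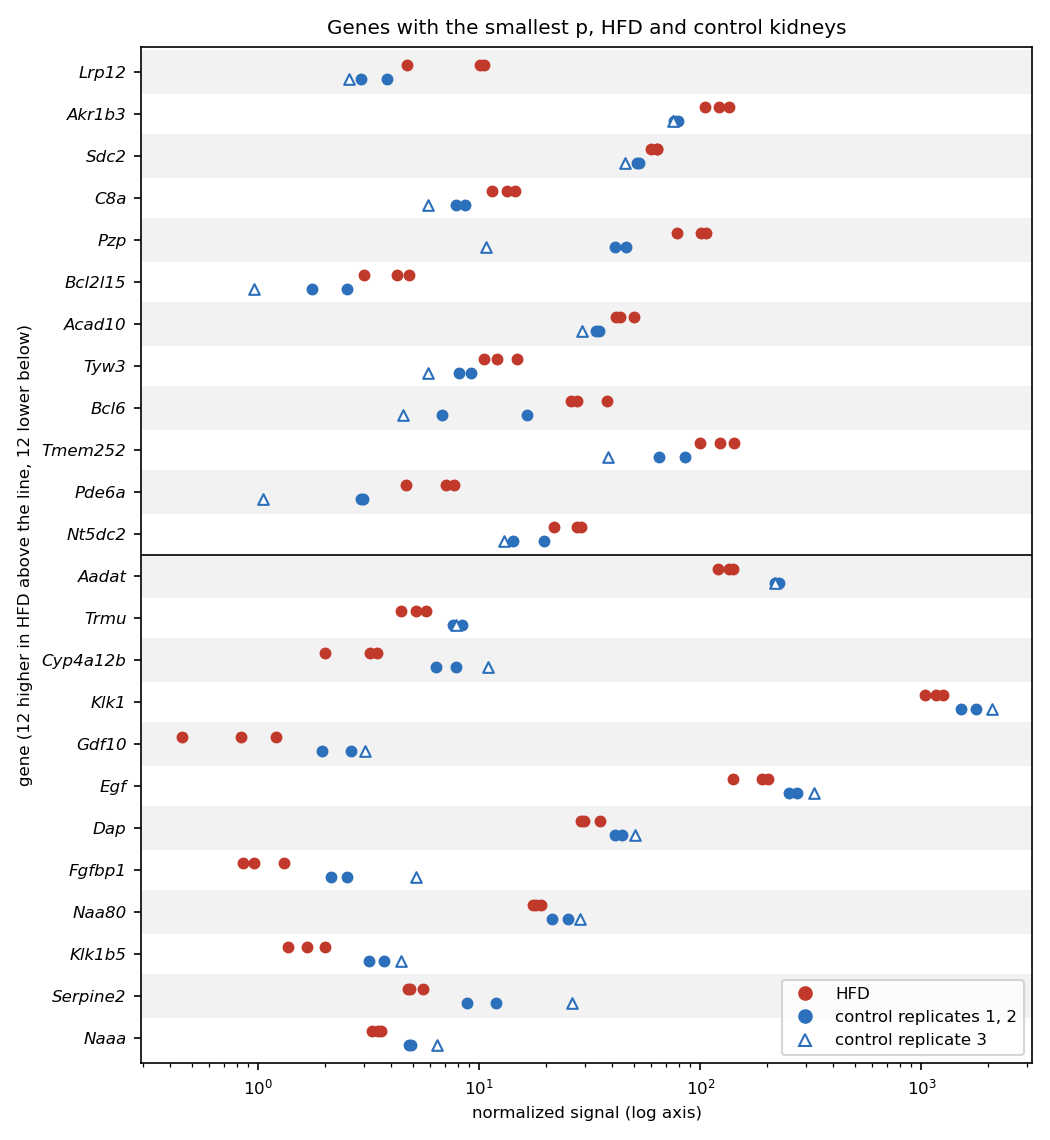
Signal per library (log axis) of 24 genes with the smallest p among those whose 2 groups did not overlap, 1 pseudogene passed over, the 12 higher and the 12 lower in HFD kidneys. HFD points are drawn above control points in each gene's band, and control replicate 3 is an open triangle. Aadat sits at 120.0 to 140.04 in HFD kidneys, against 217.25 to 227.95 in controls.

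With all libraries in the fit, genes passed in the average of both diet contrasts. The mean of HFD against control and HFD+AOS against AOS called 6 genes at an adjusted p of 0.05 in limma (0.0499% of those tested). Bcl6, Suox, Acad10 and Sdc2 rose (0.0332%), and Aadat and Ttll1 fell (0.0166%). All 6 were again among the 36 genes called without control replicate 3 (0.299%). The log2 differences without it were 1.70 for Bcl6, 0.51 for Suox, 0.39 for Acad10, 0.26 for Sdc2, -0.61 for Aadat and -0.37 for Ttll1. With a term for the libraries that hold germ cell transcripts, the count was 0. The log2 differences were then 1.80 for Bcl6, 0.50 for Suox, 0.45 for Acad10, 0.31 for Sdc2, -0.62 for Aadat and -0.40 for Ttll1. That term marked every control library and HFD replicates 1 and 2, so it rested on HFD replicate 3 against the other HFD libraries. HFD replicate 3 then has no part in the HFD minus control difference, so this fit is not a separate check from leaving that library out. The count was also 0 in a fit of the compared groups alone, and 3 with a replicate block. It rests on single libraries as well. It was 0 without HFD replicate 1, HFD replicate 3, HFD+AOS replicate 1, AOS replicate 1 or AOS replicate 2. It was 1 without HFD+AOS replicate 2, 2 without HFD replicate 2, 3 without control replicate 1 and 5 without AOS replicate 3. It was 15 without HFD+AOS replicate 3 and 99 without control replicate 2.

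Aadat (chr8:60505932-60545677, plus strand) encodes a mitochondrial aminotransferase of lysine and kynurenine breakdown. Its signal was 120.0, 140.04 and 134.74 in HFD kidneys, against 217.78, 227.95 and 217.25 in controls, and 139.69, 179.12 and 165.77 in HFD+AOS kidneys, against 255.31, 235.19 and 185.39 in AOS kidneys. Every HFD library lay below every library of its comparison group in both comparisons. The mean log2 difference was -0.61 ± 0.08 (SE; limma adjusted p = 0.0255), and Aadat was also the gene with the smallest p in HFD against control alone (-0.75 ± 0.12; adjusted p = 0.136, n = 3 each), a difference of -0.76 without control replicate 3. The FMT libraries, all on HFD, had 145.8, 181.84 and 175.63 with AOS-FMT, and 164.84, 163.58 and 166.38 with control-FMT, all below the control libraries.

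Bcl6 (chr16:23965052-23988852, minus strand) encodes a zinc finger repressor of transcription, known from germinal centre B cells and, in mouse liver, from the repression of fatty acid oxidation genes. Its signal was 25.98, 27.67 and 37.65 in HFD kidneys, against 6.75, 16.49 and 4.52 in controls. In the AOS pair it was 21.25, 31.53 and 22.08 with HFD, against 5.08, 3.87 and 8.12 without. Neither pair overlapped, though control replicate 2 stood well above the other 2 controls. The mean log2 difference was 1.88 ± 0.28 (adjusted p = 0.0255 in limma), the largest of the 6 genes called. The FMT libraries had 26.99, 25.42 and 28.4 with AOS-FMT, and 29.78, 21.32 and 10.33 with control-FMT. The last of these lay inside the control range.

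Suox (chr10:128669894-128674073, minus strand), the mitochondrial sulfite oxidase of sulfur amino acid breakdown, had 46.77, 50.88 and 50.99 in HFD kidneys, against 33.55, 36.4 and 35.16 in controls. With AOS it had 74.66, 60.23 and 51.56 on HFD, against 40.16, 45.5 and 40.85 on AOS alone. The rise was 0.51 ± 0.08 on the log2 scale (limma adjusted p = 0.0283), and neither pair of groups overlapped. Acad10 (chr5:121621026-121660514, minus strand), of the mitochondrial acyl-CoA dehydrogenase family, had 43.36, 49.96 and 41.35 in HFD kidneys, against 34.89, 33.8 and 29.08 in controls, and 47.94, 49.86 and 46.57 in HFD+AOS kidneys, against 36.46, 31.59 and 41.16 in AOS kidneys. It too was higher in every HFD library of each pair, by 0.42 ± 0.07 (adjusted p = 0.0425 in limma).

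Sdc2 (chr15:32920723-33034935, plus strand), the cell surface heparan sulfate proteoglycan syndecan-2, rose least but with little spread. It had 63.56, 63.5 and 59.73 in HFD kidneys, against 51.91, 52.71 and 45.84 in controls, and 75.58, 70.12 and 73.71 in HFD+AOS kidneys, against 56.23, 59.88 and 63.95 in AOS kidneys (log2 0.29 ± 0.04; limma adjusted p = 0.0255). Ttll1 (chr15:83483769-83510893, minus strand), a tubulin polyglutamylase subunit, was low in level, with 3.74, 3.55 and 4.04 in HFD kidneys, against 4.69, 4.58 and 5.02 in controls, and 2.98, 2.91 and 2.97 in HFD+AOS kidneys, against 4.44, 4.06 and 5.31 in AOS kidneys. It fell by 0.38 ± 0.06 (limma adjusted p = 0.0255) with no overlap in either pair.

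**Figure D2:**
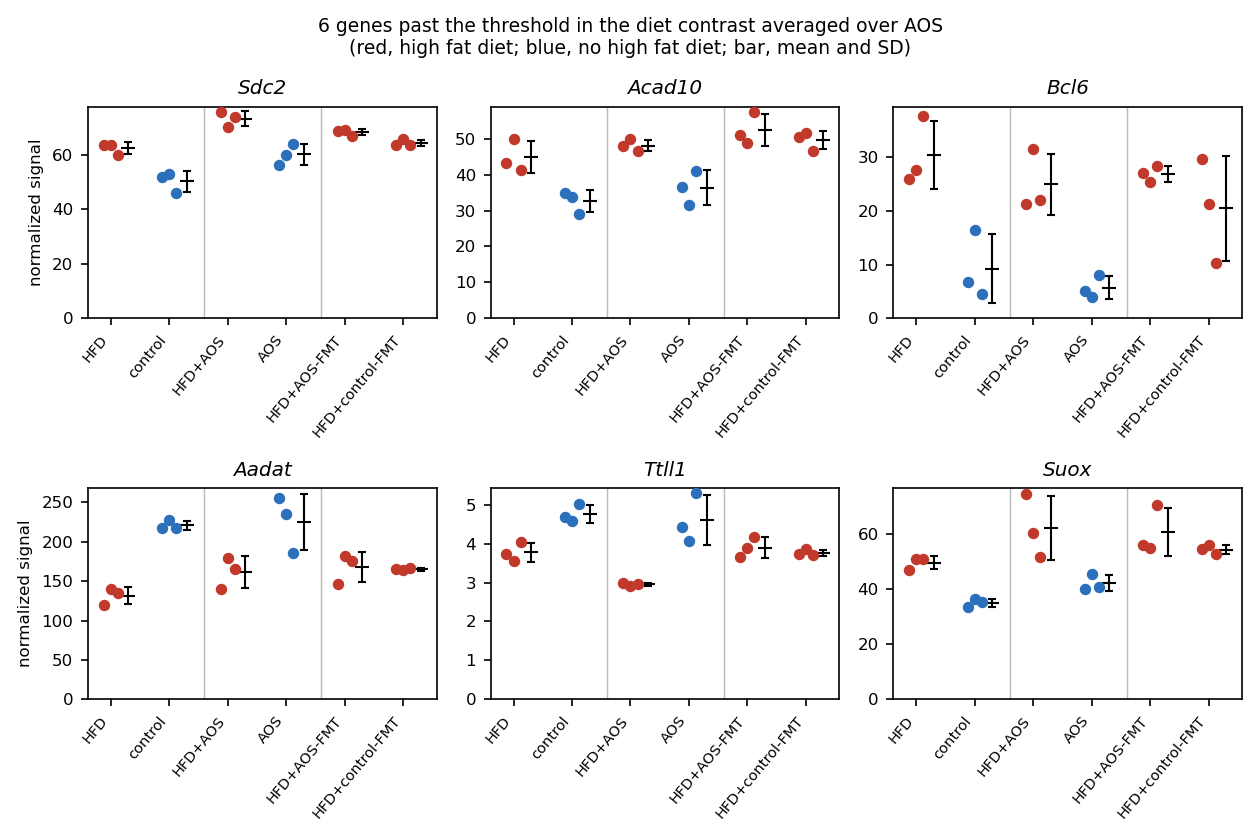
Signal per library of the 6 genes called in the mean of both diet contrasts, with HFD left of control and HFD+AOS left of AOS. Bcl6, Suox, Acad10 and Sdc2 are higher and Aadat and Ttll1 lower in the HFD group of each pair, without overlap.

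The promoters of these genes are shown because these are the genes called in the averaged contrast, 4 of them higher and 2 lower. Sequences of 4 of the 6 were found in RefSeq (GRCm38.p6), from 250 bases before to 50 after the most upstream start; Sdc2 and Ttll1 were not among them. They are written 5′ to 3′ on the gene's strand, with motif matches in capitals, searched on both strands. The matches in Bcl6 are, along the sequence, TTCNNNGAA (an interferon gamma activated site), CACGTG (an E-box) and GGGCGG (a GC box, at 2 places). Those in Aadat are GGGCGG and CCAAT, the second on the other strand, and those in Suox are GGGCGG at 5 places, 4 of them on the other strand, and CCAAT once. Of the 5 in Suox, 3 overlap by 1 base each. Acad10 had no match to these, to TTATGNAA, to TGACGTCA or to the nuclear receptor motif called direct repeat 1.
Aadat, chr8:60505874-60506173, plus strand: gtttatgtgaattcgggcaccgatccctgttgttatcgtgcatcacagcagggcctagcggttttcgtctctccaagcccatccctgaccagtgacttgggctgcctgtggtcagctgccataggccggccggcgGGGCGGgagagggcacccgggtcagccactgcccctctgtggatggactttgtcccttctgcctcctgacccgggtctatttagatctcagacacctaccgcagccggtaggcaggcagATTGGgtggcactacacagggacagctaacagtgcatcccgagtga
Bcl6, chr16:23988803-23989102, minus strand: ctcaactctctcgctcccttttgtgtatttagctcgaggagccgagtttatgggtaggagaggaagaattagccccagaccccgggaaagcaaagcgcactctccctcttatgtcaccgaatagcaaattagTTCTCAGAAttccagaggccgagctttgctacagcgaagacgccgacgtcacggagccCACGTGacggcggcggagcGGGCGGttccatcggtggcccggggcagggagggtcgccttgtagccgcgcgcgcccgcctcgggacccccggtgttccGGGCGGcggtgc
Suox, chr10:128673869-128674168, minus strand: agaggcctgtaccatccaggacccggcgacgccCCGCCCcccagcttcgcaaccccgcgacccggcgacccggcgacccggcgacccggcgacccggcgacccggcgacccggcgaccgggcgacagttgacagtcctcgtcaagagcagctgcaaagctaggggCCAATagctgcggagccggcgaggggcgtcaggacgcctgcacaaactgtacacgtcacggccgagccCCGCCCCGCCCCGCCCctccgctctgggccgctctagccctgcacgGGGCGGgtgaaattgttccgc
Acad10, chr5:121660461-121660760, minus strand: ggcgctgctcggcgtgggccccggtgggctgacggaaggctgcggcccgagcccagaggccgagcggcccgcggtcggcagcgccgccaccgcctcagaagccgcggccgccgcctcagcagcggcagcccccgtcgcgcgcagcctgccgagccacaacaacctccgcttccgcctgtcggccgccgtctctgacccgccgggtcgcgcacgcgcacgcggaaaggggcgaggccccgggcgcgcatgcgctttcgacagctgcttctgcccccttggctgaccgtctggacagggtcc
Of all 27025 promoters of this length, 7.24% held CACGTG, 8.42% TTCNNNGAA, 35.9% GGGCGG, 38.0% CCAAT, 3.53% TTATGNAA, 1.85% TGACGTCA and 0.0444% the direct repeat. Aadat and Suox both held GGGCGG and CCAAT, and no motif was in all 4. For Aadat and Suox the RefSeq start lay well inside the gene coordinates given above, so much of each sequence lies within the gene by those coordinates. A match describes the letters and not binding.

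Fatty acid synthesis builds new fat from acetyl-CoA. Of 17 fatty acid synthesis genes measured, 5 were lower at an unadjusted p under 0.05 (Scd2, Scd1, Elovl5, Elovl6 and Dgat1) and none was higher, against 14.5% and 2.93% of all genes, and the median log2 difference was -0.23, against -0.10 over all genes. Without control replicate 3 the count was 4 lower, against 4.6% of all genes, and the median -0.12. After quantile normalization 4 were lower, against 818 of all 12031 genes. Scd1, stearoyl-CoA desaturase, had a signal of 27.9, 19.92 and 21.46 in HFD kidneys, against 82.1, 56.02 and 27.82 in controls. HFD replicate 1 overlapped control replicate 3, and otherwise the groups were apart. With AOS it had 15.56, 13.81 and 22.33 on HFD, against 42.64, 41.95 and 37.08 on AOS alone, with no overlap. The mean diet difference was -1.16 (limma adjusted p = 0.114), and without control replicate 3 it was -1.37 and passed (adjusted p = 0.0243).

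Fasn and Acaca, which make palmitate from acetyl-CoA, were chosen after their values were seen. Fasn had 16.89, 10.55 and 12.5 in HFD kidneys, against 28.14, 22.3 and 7.0 in controls. Acaca had 5.58, 3.89 and 4.35, against 8.16, 6.32 and 3.5. In both, all 3 HFD values were below control replicates 1 and 2 and above control replicate 3. Their HFD minus control differences without that library were -0.89 and -0.56, and neither passed. Srebf1, the transcription factor over these genes, had 12.82, 8.29 and 9.46 in HFD kidneys, against 10.26, 11.58 and 10.81 in controls, and overlapped. The 11 adipocyte markers summed to 478.17, 233.57 and 649.41 in HFD kidneys, against 582.85, 326.25 and 165.88 in controls, overlapping and lowest in control replicate 3. The part of fat cells in the lipid gene values was not tested.

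Fatty acid oxidation genes gave 1 call. Of 20 genes measured, 1 was lower (Cyp4a14, which was 227.2 in control replicate 3 alone against 2.42 to 8.56 in the other 5 libraries) and 0 were higher, against 14.5% and 2.93% of all genes. The median was -0.12, and 0.01 without control replicate 3. Without that library 1 gene other than Cyp4a14 was lower and 0 were higher. Pdk4, which slows glucose use in favour of fat, had 7.86, 6.15 and 7.73 in HFD kidneys, against 3.31, 3.96 and 6.01 in controls; the groups did not overlap, but the difference did not pass (0.63 ± 0.36). Of 19 cholesterol genes 1 was higher and 2 were lower (median -0.11, against -0.10 over all genes), and 0 and 1 without control replicate 3. Dhcr7, the last enzyme of cholesterol synthesis, had 12.64, 9.98 and 11.04 in HFD kidneys, against 13.26, 16.84 and 20.67 in controls. Of 17 glucose genes 0 were higher and 4 lower, and 1 and 0 without control replicate 3. Of 19 oxidative phosphorylation genes 1 was higher and 5 lower, and none in either direction without that library.

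In HFD against control, markers of the later tubule segments and of podocytes were called lower more often than all genes. Podocytes are the filter cells of the glomerulus. The calls were more numerous with control replicate 3 in the fit. Of 15 loop and distal genes 8 were lower and 0 higher (median -0.54), and 5 were lower without control replicate 3 (median -0.29). The collecting duct had 6 of 10 lower, and 3 without it. The intercalated cells had 7 of 9 and 3, and the podocytes 5 of 9 and 2, none of them higher. After quantile normalization 8 loop and distal, 5 collecting duct, 4 intercalated and 5 podocyte genes were lower and 0 higher. These shares stand beside 14.5% of all genes lower, 4.6% without control replicate 3, and 818 of 12031 genes after quantile normalization. The lists were chosen with earlier results of these data known, so the shares are a description and not a test. In HFD+AOS against AOS, 2 collecting duct genes were lower and 0 higher. The loop and distal, intercalated and podocyte lists had no call there, against 5.63% of all genes lower and 5.45% higher. Their medians were -0.03, 0.15 and 0.06. In bulk kidney, fewer cells of a type and less RNA per cell cannot be told apart, and how much cortex and medulla entered each library was not given.

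**Figure D3:**
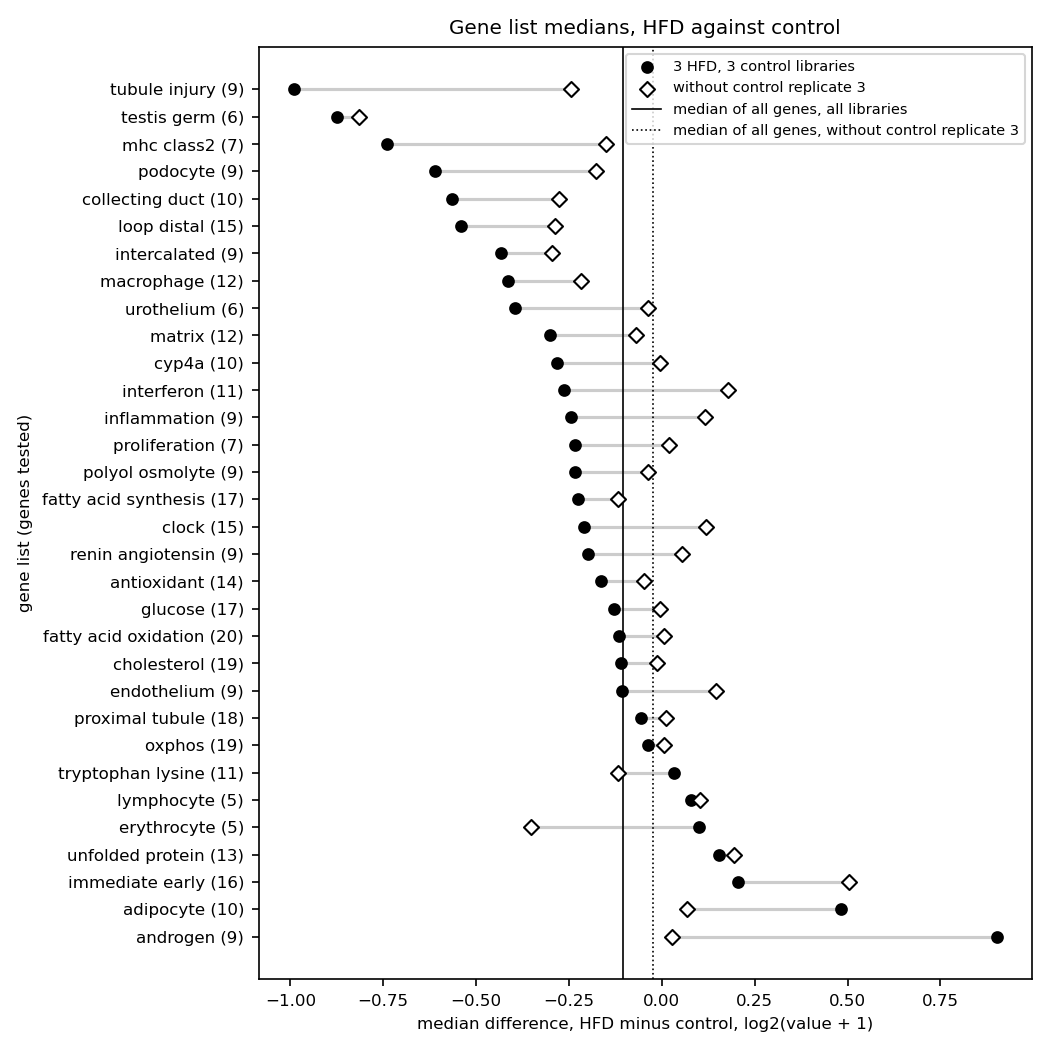
Median log2 difference, HFD minus control, for each gene list with at least 5 measured members, with all libraries (filled) and without control replicate 3 (open); vertical lines are the medians of all genes. The tubule injury median is -0.99 with all libraries and -0.24 without that library; the androgen median is 0.90 and 0.03.

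Klk1, the tissue kallikrein of the distal tubule, had 1035.96, 1165.85 and 1249.9 in HFD kidneys, against 1774.18, 1517.46 and 2074.24 in controls (-0.63 ± 0.12). Egf, made in the thick ascending limb and distal tubule, had 140.51, 189.12 and 202.71, against 251.43, 274.25 and 324.91 (-0.68 ± 0.13). Neither overlapped between the groups, as the naming rule required, and the differences were -0.52 and -0.58 without control replicate 3. Neither passed after adjustment, and reads of near-identical kallikrein genes cannot be assigned with certainty, which touches Klk1 and Klk1b5. In HFD+AOS against AOS the groups overlapped for both, with differences of -0.10 for Klk1 and 0.16 for Egf.

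Scnn1b, a subunit of the epithelial sodium channel, had 11.83, 12.88 and 10.99 in HFD kidneys, against 18.56, 13.23 and 33.57 in controls (-0.72 ± 0.21, and -0.37 without control replicate 3). Aqp2, the water channel of principal cells, had 36.59, 41.37 and 75.83, against 66.6, 82.02 and 237.36, with HFD replicate 3 inside the control range. Atp6v1b1, the proton pump subunit of intercalated cells, had 24.31, 24.03 and 24.6, against 33.39, 27.27 and 47.45. Control replicate 3 was the highest control for all 3 genes, and the groups were apart for Scnn1b and Atp6v1b1. None of these 3 genes passed after adjustment.

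No tubule injury gene was called higher in HFD kidneys. The 12 injury genes summed to 370.27, 402.76 and 461.21 in HFD kidneys, against 604.17, 801.09 and 3107.43 in controls. Of the 9 measured above the filter 5 were lower, against 14.5% of all genes. After quantile normalization 4 were lower, against 818 of all 12031 genes. Without control replicate 3 the count was 2, against 4.6% of all genes. Spp1, osteopontin, had 170.89, 206.3 and 268.39 in HFD kidneys, against 306.8, 604.04 and 2434.02 in controls. Havcr1, encoding kidney injury molecule-1, had 2.04, 2.32 and 2.46, against 2.03, 1.85 and 19.36, so that only control replicate 3 was high. Lcn2, encoding lipocalin-2, had 1.25, 2.06 and 2.96, against 4.99, 2.72 and 35.12, with HFD replicate 3 above control replicate 2. The proximal tubule markers, 18 measured, had 3 higher and 1 lower (median -0.06), and 1 higher and 4 lower without control replicate 3, beside 2.93% higher and 14.5% lower of all genes, and 2.23% and 4.6% without that library.

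**Figure D4:**
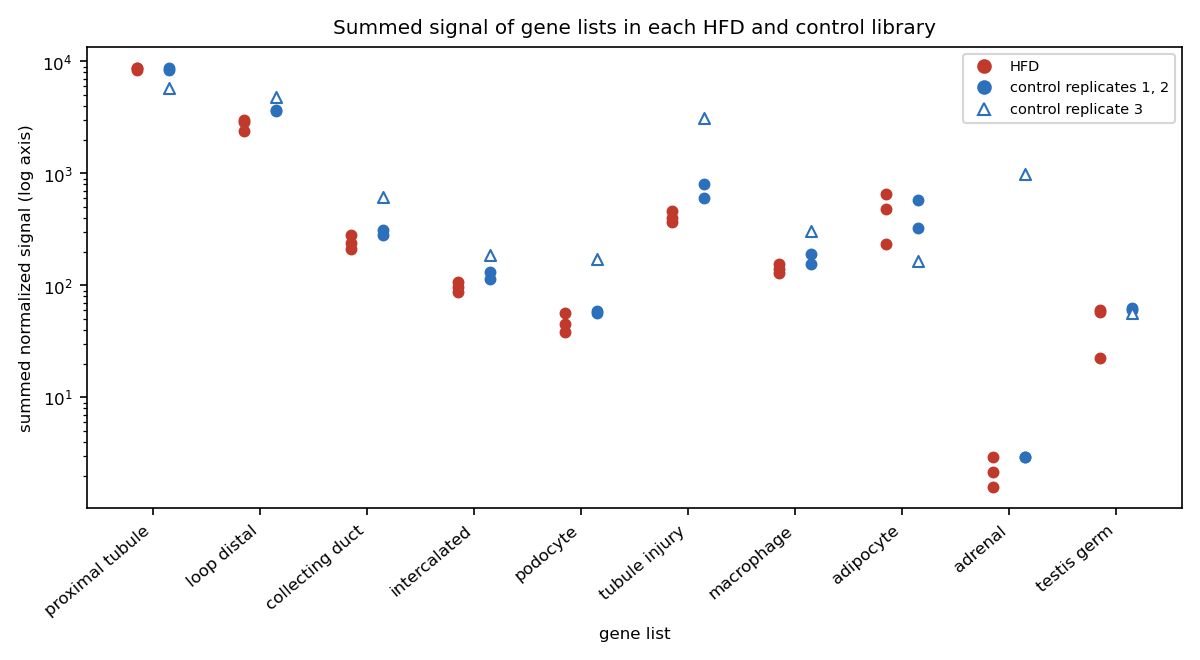
Summed signal per library (log axis) of marker lists in HFD and control kidneys. The adrenal list is at 989.28 in control replicate 3 and 1.57 to 2.96 in the other 5 libraries.

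The named genes also held members of other pathways. Akr1b3, the aldose reductase that makes sorbitol from glucose, had 120.87, 105.35 and 134.35 in HFD kidneys, against 76.09, 79.45 and 74.84 in controls (0.63 ± 0.12), and its difference was 0.61 without control replicate 3. Sord, the next enzyme of that pathway, had 567.07, 565.53 and 600.83, against 505.2, 525.91 and 487.43. Both were higher in every HFD library than in every control. Pzp, an alpha-macroglobulin protease inhibitor, had 78.32, 105.62 and 101.07, against 41.18, 46.3 and 10.71 (1.74 ± 0.37, and 1.09 without control replicate 3). Lrp12, a member of the LDL receptor family, had 10.54, 4.69 and 10.12, against 2.93, 3.82 and 2.57. Every HFD value of Pzp and Lrp12 was above every control value, and HFD replicate 2 was the lowest of the HFD values for Lrp12.

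Among the lower genes, Trmu, a mitochondrial tRNA-modifying enzyme, had 5.75, 4.42 and 5.17 in HFD kidneys, against 7.58, 8.39 and 7.82 in controls. Cyp4a12b, a fatty acid hydroxylase with a near-identical copy, had 3.46, 2.0 and 3.22, against 7.83, 6.4 and 10.9. Serpine2, the protease inhibitor nexin-1, had 4.86, 4.76 and 5.56, against 11.84, 8.82 and 26.31. The groups of all 3 were apart, as the naming rule required, and control replicate 3 was the highest control for Cyp4a12b and Serpine2. Gdf10, a growth factor of the bone morphogenetic protein family, had 0.45, 1.2 and 0.84, against 2.63, 1.95 and 3.05, and Fgfbp1, a carrier of fibroblast growth factors, had 0.96, 0.85 and 1.31, against 2.51, 2.13 and 5.18. On the higher side, C8a, the alpha chain of complement component C8, had 11.36, 13.36 and 14.49, against 7.82, 8.6 and 5.88. The rest of the 24 were Bcl2l15, Tyw3, Tmem252, Pde6a and Nt5dc2, higher, and Dap, Naa80, Klk1b5 and Naaa, lower. None of the 24 passed after adjustment in HFD against control. Without control replicate 3 the 6 higher genes with the smallest p were Pzp, Tdp2, Tent4a, Aldh9a1, Akr1b3 and Sdc2, and the 6 lower were Aadat, Serpine2, Trmu, Fgfbp1, Igf1r and Klhdc8a. Igf1r, the receptor of insulin-like growth factor 1, had 15.18, 17.21 and 15.56 in HFD kidneys, against 23.66, 20.58 and 20.31 in controls, so that its groups were apart with all 6 libraries. Tdp2, a DNA repair phosphodiesterase, had 11.73, 12.18 and 12.43, against 5.92, 6.45 and 21.42, and was apart only once control replicate 3 was left out.

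In HFD+AOS against AOS, 10 of the 12 higher genes were also higher and 9 of the 12 lower genes also lower. There, 4 of the higher and 2 of the lower had an unadjusted p under 0.05 in that direction, against 5.45% and 5.63% of all genes. Of all genes with an unadjusted p under 0.05 in HFD against control, 60.5% of the higher and 56.0% of the lower had the same sign in the AOS pair, where 49.4% of all genes were positive. These became 65.7% and 58.7% without control replicate 3. In HFD+AOS against AOS no gene passed with all libraries (limma; 1333 genes at an unadjusted p under 0.05, 11.1%), and 158 passed (1.31%) when control replicate 3 was left out of the shared estimate of the spread. The difference between the 2 diet contrasts passed for no gene (1490 at an unadjusted p under 0.05, 12.4%).

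**Figure D5:**
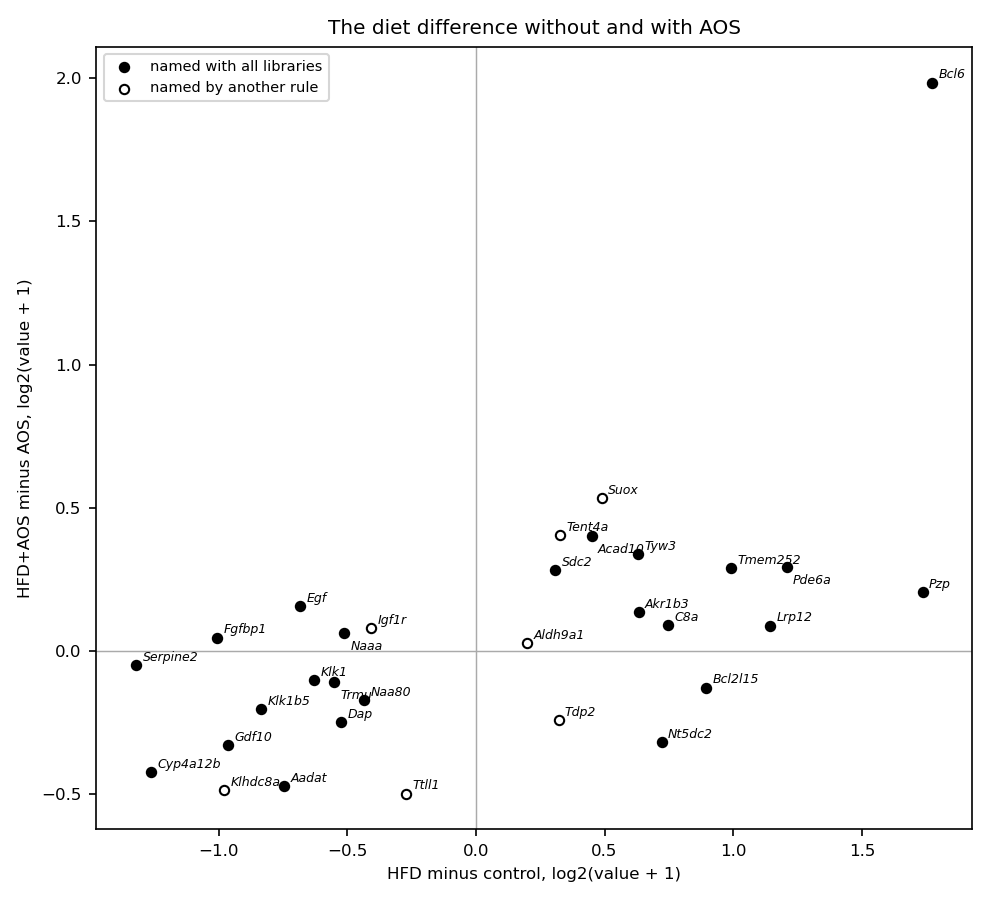
Log2 difference of each named gene in HFD minus control (horizontal) and HFD+AOS minus AOS (vertical); filled points are the 24 genes named with all libraries. Bcl6 lies at 1.77 and 1.98, Aadat at -0.75 and -0.47, and Egf at -0.68 and 0.16.

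Calls among immune and stress genes are read beside 14.5% of all genes lower and 2.93% higher, and 4.6% and 2.23% without control replicate 3. Of 9 inflammation genes none was called, and 1 was higher without control replicate 3. Ccl2, a monocyte chemokine, had 0.31, 0.53 and 1.27 in HFD kidneys, against 0.48, 0.63 and 2.91 in controls. Its groups overlapped with and without control replicate 3. Of 12 macrophage genes 3 were lower, led by Lyz2, a lysozyme, with 31.38, 24.84 and 35.39, against 45.02, 44.69 and 83.18; 2 were lower without control replicate 3. Of 14 antioxidant genes 1 was higher and 2 were lower in both fits. Hmox1, heme oxygenase-1, was the higher one, with 53.5, 44.13 and 53.47 in HFD kidneys, against 33.73, 38.74 and 39.26 in controls. Nqo1, a quinone reductase, was lower, with 19.95, 19.42 and 18.39, against 21.85, 25.7 and 53.65. Neither overlapped between the groups. Of 13 unfolded protein genes 2, Calr and Hspa5, were higher. Without control replicate 3 neither was called, and 1 other gene was higher. In that fit 12 of the 13 differences were positive, beside 41.1% of all genes, and 9 with all libraries, beside 26.7%. Of 16 immediate early and heat shock genes 1, Hsph1, was higher. Without control replicate 3 Hsph1 was not called, and the 1 higher gene was Atf3. All 16 differences were then positive (median 0.50), and 11 with all libraries (median 0.21). The 17 listed genes summed to 322.76, 193.38 and 470.92 in HFD kidneys, against 145.11, 274.25 and 325.96 in controls, with overlap.

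The other lists are given by their counts, beside 14.5% of all genes lower and 2.93% higher, and 4.6% and 2.23% without control replicate 3. The clock (15), interferon (11), endothelium (9) and erythrocyte (5) lists had no call in either direction, with or without that library. The lymphocyte list (5) had none with it and 1 lower without it. The 16 clock genes summed to 139.56, 167.51 and 142.14 in HFD libraries, against 131.65, 141.83 and 362.21 in controls. In controls Dbp had 2.76, 6.9 and 90.6, and Arntl 12.54, 10.05 and 2.71. The sums were 303.84, 310.45 and 339.23 in HFD+AOS libraries, against 206.75, 224.01 and 163.19 in AOS libraries. The part of clock state in the calls was not tested. In HFD+AOS against AOS, the clock list had 5 higher and 3 lower, the erythrocyte list 2 higher and 3 lower, and the cholesterol list 0 higher and 8 lower, against 5.45% and 5.63% of all genes. Matrix genes had 1 of 12 lower, proliferation 1 of 7, smooth muscle 1 of 3, adrenal 1 of 2 and germ cell 3 of 6, with none higher, and 0 in each without control replicate 3. The urothelium list had 2 of 6 lower in both fits. The sex chromosome list had 1 of 4 higher and the adipocyte list 1 of 10, with 0 without control replicate 3. The renin-angiotensin list had 1 of 9 higher in each fit, but not the same gene.

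Tryptophan and lysine genes had 1 of 11 lower, which was Aadat, and 3 without control replicate 3. The polyol and osmolyte list had 2 of 9 higher and 1 lower in both fits. The Cyp4 list had 1 of 10 higher and 2 lower, and 0 and 1 without control replicate 3. The MHC class II list had 0 of 7 higher and 3 lower, and 0 and 2 without it. The androgen list had 2 of 9 higher and 1 lower, and 0 and 1 without it, and its median was 0.90, and 0.03 without that library. Its lower gene was Cyp4a12b, which was highest in control replicate 3 (10.9), where Kap and Cyp4a12a were lowest.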

How the data were processed

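The data were 18 mouse kidney libraries in 6 groups of 3. Per the submitters' processing notes the aligner was Bowtie 0.12.2 and the build mm10; which counting program, annotation and normalization were used is not given in the sources used here. Each gene symbol has a row with the signal that the authors deposited, normalized by a method they do not name. Column sums varied by a coefficient of variation of 3.5%, and 0.815% after multiplying by transcript length, so the signal was treated as scaled for length and depth. Read numbers are unknown. Of 19545 entries, 26 symbols turned into dates and 1 repeated entry were left out. Log2(signal + 1) was fitted in limma 3.58.1 (R 4.3.3; trend, robust, 12 residual degrees of freedom, two-sided) for 4 contrasts, with Benjamini-Hochberg adjustment over 12031 genes at 0.05. All values after ± are SE. Coordinates are from GENCODE M21 (GRCm38). The members and the 35 lists were chosen with earlier results of these data known. A list member is called higher or lower at an unadjusted p under 0.05. Named genes were the 12 higher and 12 lower (6 each without control replicate 3) with the smallest p among non-overlapping genes with a mean of at least 1, up to 10 genes called over both contrasts, and the first listed and up to 3 smallest-p members per list; predicted genes and pseudogenes were passed over, here 1 pseudogene (H2-Ea-ps). The fit was tested on simulated data. Alternatives were the pseudocount, the filter, quantile normalization, the spread model, array weights, the compared groups alone, a replicate block, a germ cell term and leaving out each library. A gene that the naming rule selects is not reported here.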

Additional observations from a re-analysis of the deposited data

Results flagged for a closer look

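For 5 of 148 named genes, HFD and control kidneys did not overlap in one direction while HFD+AOS and AOS kidneys did not overlap in the opposite one. Over all genes, 15.7% did not overlap between HFD and control kidneys, and 24.2% between HFD+AOS and AOS kidneys. The share of all genes apart in opposite directions was not counted, and the named genes were in part picked for not overlapping in the first pair. The value given is the log2 difference in HFD against control minus that in HFD+AOS against AOS, from limma, and it passed for none of them. It was 1.039 for Nt5dc2 (adjusted p = 0.274), -0.752 for Atp6v1b1, a proton pump subunit of intercalated cells (adjusted p = 0.295), and -1.136 for Cd14, the lipopolysaccharide co-receptor (adjusted p = 0.339). It was 0.986 for Hmox1 (adjusted p = 0.265) and -0.803 for Slc6a6, the taurine transporter (adjusted p = 0.366). Nt5dc2 had 27.66, 28.85 and 21.73 in HFD kidneys, against 14.14, 19.52 and 12.95 in controls, and 14.5, 13.4 and 11.63 in HFD+AOS kidneys, against 14.98, 15.44 and 19.75 in AOS kidneys. The causes were not tested.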

How the results depend on the processing

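The number of genes passing in HFD against control (0) was 25 with no filter on low values and 1 in a fit of the compared groups alone, and 0 to 217 when a library was left out. In HFD+AOS against AOS (0) it was 2 with a filter at 5, 4 with quantile normalization, 4 without trend and robust estimation, 276 with array weights, 181 with quantile normalization without control replicate 3, and 0 to 158 when a library was left out. For the mean of both (6) it was 19 with no filter, 16 with quantile normalization, 68 with array weights, 0 in the compared groups alone, 0 with a germ cell term, 55 with quantile normalization without control replicate 3, and 0 to 99 when a library was left out. For the difference of the contrasts (0) it was 4 with no filter and 0 to 1 when a library was left out. Quantile normalization without control replicate 3 was chosen after seeing the data. Replicate numbers are shared between groups. The deviations of same-numbered libraries correlated at -0.039 to 0.26, and those of differently numbered ones at -0.286 to 0.171. With 3 libraries a group, these values cannot settle whether the numbers pair the libraries. With a replicate block the mean contrast called 3 genes and the others 0. The cause of these moves was not tested. Among single genes, 64 results became stronger and 63 weaker, against 4089 on the same side of the threshold. Reversal was looked for only where a gene passed in either fit, and none was found. In HFD against control, where no gene passed, 19 of 148 named genes changed sign without control replicate 3. The sign changed for 12 with array weights and for 22 with quantile normalization without control replicate 3. With 3 libraries a group and unknown depth, small differences and low levels are the least certain.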

Other observations

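The class II genes H2-Ea-ps and H2-Eb1, which lie in a region that differs between mouse strains, split between libraries. H2-Ea-ps had a signal of 0.32, 0.11 and 0.0 in HFD kidneys, against 14.95, 12.62 and 16.75 in controls, and H2-Eb1 had 0.48, 7.01 and 1.26, against 16.81, 13.48 and 12.98. The groups did not overlap for either gene. H2-Aa, another class II gene, had 73.81, 82.69 and 83.36, against 85.9, 91.57 and 204.07. In HFD+AOS kidneys H2-Ea-ps had 14.68, 5.38 and 8.03, against 32.99, 5.74 and 6.38 in AOS kidneys, with overlap.

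Ucp1, the uncoupling protein of brown fat, had 42.85, 12.62 and 27.52 in HFD kidneys, against 1.03, 8.18 and 0.72 in controls, without overlap. It had 1.27, 2.0 and 73.64 in HFD+AOS kidneys, against 0.64, 7.98 and 0.82 in AOS kidneys, where 1 library stood far above the rest. Cidea, another brown fat gene, had 12.93, 4.18 and 15.22 in HFD kidneys, against 2.52, 6.2 and 0.77 in controls. Hbb-bs, a beta globin, had 791.01, 878.61 and 58.32 in HFD kidneys, against 0.0, 579.42 and 393.73 in controls, so that it was listed at 0 in control replicate 1.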
